A study of Mus musculus with 16 samples.

Results

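This comparison set the promoter contacts of mouse embryonic stem cells (ESC) without TET enzymes against those of the parental wild-type line. Its members were the 4 samples labelled TET_WT and TET_KO in ESC, out of 16 samples in the series, and every promoter contact scored in them was compared. TET_KO is a triple knock-out line of Tet1, Tet2 and Tet3, TET_WT is the line it was made from, and both were kept as naive cells in 2i/Lif at day 0. The same 2 lines taken to epiblast-like cells (EpiLC, day 2), and a separate pair in ESC, DNMT_WT and DNMT_KO (the latter without Dnmt1, Dnmt3a and Dnmt3b), stand beside the comparison where they show how far a value was shared. The labels give 2 replicates to each group, while the series text speaks of triplicates in general. The sources used here do not say whether a knock-out line is a single clone or whether replicates were separate cultures.

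Promoter-capture Hi-C joins DNA fragments that lie close together in the nucleus, here cut with HindIII, and enriches the joined pairs that hold a gene promoter. TET enzymes oxidise 5-methylcytosine at CpG sites to 5-hydroxymethylcytosine and further products, which leads to the loss of DNA methylation. In ESC they are known from enhancers and from CpG-rich promoters, many of which belong to developmental regulators held silent by Polycomb complexes. Naive ESC carry little DNA methylation in 2i medium and gain it when they pass to EpiLC. The question here was how promoter contacts differ when the enzymes that remove this mark are missing before differentiation starts.

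The upstream promoter sequences of 5 genes on which the results turn are shown, since CpG sites are the substrate of the enzymes removed. Each is the 250 bases before the transcription start in RefSeq on GRCm38.p6, written 5′ to 3′ on the gene's own strand, with every CpG in capitals. Onecut1 (chr9:74861671-74861920, plus strand), Id2 (chr12:25096093-25096342, minus strand) and Rheb (chr5:24842362-24842611, minus strand) had higher contact scores in TET_KO. Nanog (chr6:122707239-122707488, plus strand) and Zfp42 (chr8:43307010-43307259, minus strand) had lower ones.
Onecut1: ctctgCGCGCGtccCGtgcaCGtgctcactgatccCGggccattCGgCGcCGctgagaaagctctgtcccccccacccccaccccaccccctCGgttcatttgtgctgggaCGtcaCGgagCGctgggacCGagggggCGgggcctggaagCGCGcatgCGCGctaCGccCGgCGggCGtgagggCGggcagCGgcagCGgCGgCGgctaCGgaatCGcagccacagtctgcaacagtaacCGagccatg
Id2: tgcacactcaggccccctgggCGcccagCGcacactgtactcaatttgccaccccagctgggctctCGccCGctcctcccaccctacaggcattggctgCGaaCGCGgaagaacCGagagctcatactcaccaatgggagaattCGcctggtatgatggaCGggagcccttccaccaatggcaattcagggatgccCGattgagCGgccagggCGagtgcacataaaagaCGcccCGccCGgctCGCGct
Rheb: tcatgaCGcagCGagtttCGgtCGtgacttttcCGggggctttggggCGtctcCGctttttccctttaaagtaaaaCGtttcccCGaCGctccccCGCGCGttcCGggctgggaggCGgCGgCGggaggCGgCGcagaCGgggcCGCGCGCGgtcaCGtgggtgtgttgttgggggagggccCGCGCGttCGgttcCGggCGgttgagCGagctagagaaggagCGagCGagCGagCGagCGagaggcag
Nanog: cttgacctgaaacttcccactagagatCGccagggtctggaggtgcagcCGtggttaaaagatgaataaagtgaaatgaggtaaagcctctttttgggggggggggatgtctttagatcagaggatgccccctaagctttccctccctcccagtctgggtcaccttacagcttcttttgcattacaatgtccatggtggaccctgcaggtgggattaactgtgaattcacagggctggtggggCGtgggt
Zfp42: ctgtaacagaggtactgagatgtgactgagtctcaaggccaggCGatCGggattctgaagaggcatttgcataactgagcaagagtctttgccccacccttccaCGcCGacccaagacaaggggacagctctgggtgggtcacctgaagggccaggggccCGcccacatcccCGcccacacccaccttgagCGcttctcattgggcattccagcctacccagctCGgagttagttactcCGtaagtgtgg
The stretch held 31 CpG at Onecut1, 18 at Id2, 37 at Rheb, 9 at Zfp42 and 3 at Nanog. Counted over the same 250 bases before the start in all 32851 RefSeq promoters, 95.4% held no more CpG than Onecut1, 80.3% no more than Id2, 98.1% no more than Rheb, 62.2% no more than Zfp42 and 37.8% no more than Nanog. Among these 5 promoters the 3 with higher scores held more CpG than the pair with lower scores, and these 5 say nothing of other promoters.

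The 2 microRNA genes with large differences carry the following mature sequences in RefSeq, with the seed (bases 2 to 8) in capitals. Mir675 lies within the H19 gene at chr7:142577078-142577133, and Mir146 at chr11:43374399-43374456, both on the minus strand.
mmu-miR-675-5p: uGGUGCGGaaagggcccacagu
mmu-miR-675-3p: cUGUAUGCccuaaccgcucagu
mmu-miR-146a-5p: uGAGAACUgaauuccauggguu
mmu-miR-146a-3p: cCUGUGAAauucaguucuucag
All 4 seeds differed.

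The deposited table listed 260860 contacts of 20017 promoter fragments, each with a CHiCAGO score in 8 columns, 1 per line and stage. A CHiCAGO score says how far the read count of a pair exceeds what its distance and the fragments' background predict, and 5 or more is called a contact. Every listed contact reached 5 in at least 1 column, so pairs that were low everywhere were not seen. A score depends on sequencing depth, which is unknown here. Each group had 1 column, so no value has an error over replicates, no test could be made, and differences are described by their size only. The knock-out itself cannot be checked in contact scores. Expression was not measured, so the cell type was checked only by the likeness of the columns. Across promoters TET_KO ESC had Spearman correlations of 0.49 to 0.54 with the other ESC columns, and of 0.33 to 0.54 with the EpiLC columns. TET_WT ESC had 0.50 to 0.60 with ESC and 0.32 to 0.56 with EpiLC. Both were closest to DNMT_WT ESC, but TET_KO ESC was nearly as close to TET_KO EpiLC (0.54), and closer to it than to TET_WT ESC (0.50).

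The promoters of the targeted genes were examined first. The promoter value used from here on is the mean, over a promoter's listed contacts, of asinh of the score, a scale close to the natural log for high scores, after quantile normalisation of the 8 columns. A difference of 0.69 on it corresponds to a doubling of a high score. Tet2 had 18 listed contacts and promoter values of 2.15 in TET_WT and 2.10 in TET_KO. Tet3 had 9 listed contacts and values of 1.98 in TET_WT and 2.38 in TET_KO, a difference of 0.40, with 1 contact called in TET_WT and 7 in TET_KO. Tet1 had 2 listed contacts, under the minimum of 3, and 1 of them was called in TET_WT and 0 in TET_KO. Neither Tet2 nor Tet3 was past a doubling, and Tet1 could not be measured by this value.

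Called contacts reached farther in TET_KO than in TET_WT. At a score of 5 or more, 86557 contacts were called in TET_WT and 93568 in TET_KO, a ratio of 1.08. The median distance of calls on 1 chromosome was 236 kb in TET_WT and 257 kb in TET_KO, against 224 kb in DNMT_WT and 236 kb in DNMT_KO. Calls beyond 500 kb made up 13.7% of calls in TET_WT and 17.3% in TET_KO, and calls under 100 kb 17.8% and 14.5%. TET_KO thus had the longest median distance of the 4 ESC columns and the smallest share of short calls.

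The ratio of calls in TET_KO over TET_WT rose with distance up to 10 Mb. Under 100 kb, 15213 contacts were called in TET_WT and 13430 in TET_KO, a ratio of 0.883. From 100 to 500 kb the counts were 58674 and 63365, a ratio of 1.08. From 500 kb to 1 Mb they were 9077 and 12166, a ratio of 1.34, and from 1 to 10 Mb 2083 and 3288, a ratio of 1.58. The same order held in EpiLC in a narrower range, with ratios of 0.980, 1.09, 1.14 and 1.25. For DNMT_KO over DNMT_WT in ESC the ratios were 0.853, 0.941, 0.926 and 1.44, so short calls were fewer there too, and of these 4 classes calls were more numerous only from 1 to 10 Mb. With both TET columns brought to the same score distribution, an alternative added after the data were seen, the ratio over all calls is 1 by construction, and the 4 ratios were 0.802, 0.998, 1.22 and 1.5. The order by distance was kept.

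Contacts between chromosomes went the other way, from 957 to 669 calls, a ratio of 0.699. Of the listed contacts, 9986 had no score in TET_WT or TET_KO, and 5128 of these had a promoter on chromosome 4. Among pairs scored in both columns, 475 contacts between chromosomes were called in TET_WT and 475 in TET_KO. The lower count between chromosomes in TET_KO thus lay in pairs that lacked a score in 1 of the columns. Beyond 10 Mb the calls numbered 553 and 650, and 429 and 568 among pairs scored in both.

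**Figure D1:**
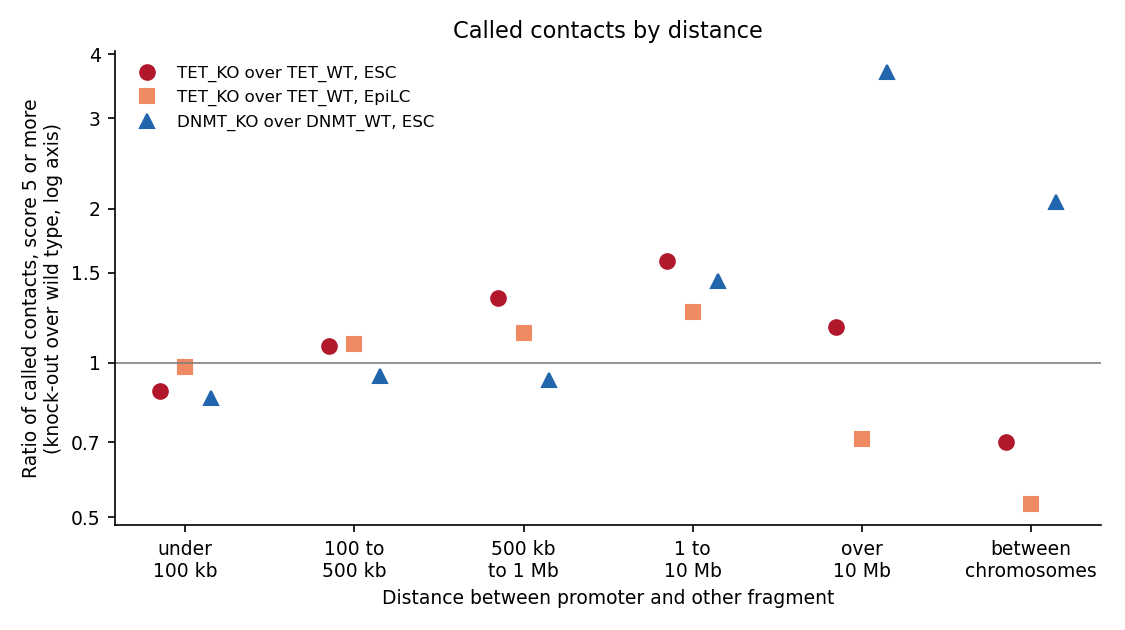
Ratio of the number of called contacts (score 5 or more) in knock-out over wild type, on a log axis, in 6 classes of distance; points stand for TET_KO over TET_WT in ESC (circles) and EpiLC (squares) and DNMT_KO over DNMT_WT in ESC (triangles), each from 1 column per group. The TET ESC ratio goes from 0.883 under 100 kb to 1.58 at 1 to 10 Mb.

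The kind of fragment at the far end also differed. Contacts between 2 promoter fragments were called 9817 times in TET_WT and 9157 times in TET_KO, a ratio of 0.933. Contacts with a fragment that was no captured promoter were called 76740 and 84411 times, a ratio of 1.10. From 1 to 10 Mb, contacts with non-promoter fragments were called 1654 and 2819 times, a ratio of 1.70, and contacts between promoters 429 and 469 times. The additional long calls of TET_KO were therefore mostly with fragments outside the captured promoters.

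Most calls of one line were at or near the threshold in the other. Of the calls, 49136 were shared, which was 56.8% of the TET_WT calls and 52.5% of the TET_KO calls. A score of at least 3 in TET_KO was found for 84.7% of the TET_WT calls, and the reverse held for 80.8% of the TET_KO calls. Contacts that differed clearly were counted where a score was 5 or more in one line and under 3 in the other. By this rule 17781 of 250874 contacts scored in both (7.09%) were higher in TET_KO and 13084 (5.22%) were lower. In EpiLC the same lines gave 7.29% higher and 5.9% lower, and DNMT_KO against DNMT_WT in ESC gave 6.62% higher and 7.07% lower. The share of clear differences between TET_KO and TET_WT was thus no larger than between the other pairs of columns. Of the clear differences 57.6% were higher in TET_KO, and 50.9% after quantile normalisation of the 8 columns (14236 higher, 13733 lower). That scaling gives the columns equal numbers of calls, which draws both counts together by construction. The share after scaling therefore cannot tell how large the excess of higher contacts was.

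Among listed contacts, clear differences were most frequent at long range. Listed contacts from 1 to 10 Mb had median scores of 0.56 in TET_WT and 1.64 in TET_KO ESC, against 3.95 and 4.12 under 1 Mb. Since each listed contact reached 5 in at least 1 column, the rise with distance follows in part from the listing. Under 100 kb 2.05% of contacts were higher and 2.78% lower, from 100 to 500 kb 6.12% and 4.88%, from 500 kb to 1 Mb 12.5% and 7.45%, and from 1 to 10 Mb 16.6% and 8.44%. The EpiLC columns, which come from other samples of the same lines, had not been used in the rule for these contacts. They did count for the list itself, since a score of 5 in any column put a contact on it. Of the contacts higher in TET_KO ESC, 61.1% scored higher in TET_KO also in EpiLC, against 50.7% of all contacts, and 9.43% met the full rule there, against 7.29%. Of the contacts lower in TET_KO ESC, 61.8% scored lower in EpiLC, against 48.3% of all contacts, and 6.30% met the full rule, against 5.9%. From 1 to 10 Mb, 53.8% of the higher contacts scored higher in EpiLC, against 48.8% of all contacts at that distance, but 11.1% met the full rule, against 21.1%. Of the lower contacts there, 45.3% scored lower in EpiLC, against 39.4%, and 8.88% met the full rule, against 14.1%. Single contacts thus carried over to EpiLC only in part. Those from 1 to 10 Mb met the full rule in EpiLC at a lower share than all listed contacts of that distance. All listed contacts include those listed only because an EpiLC column reached 5, which raises their share by the full rule in EpiLC. The lower share therefore cannot tell how far long contacts carried over.

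Averaged over a promoter's contacts, differences past a doubling kept their sign in EpiLC more often than clear differences of single contacts did. The rules are unlike, since a promoter value is a scaled mean over at least 3 contacts, so the shares are not strictly comparable. The EpiLC columns also counted for the list of contacts averaged here. Of 15677 promoters with at least 3 contacts scored in all 8 columns, 529 (3.37%) were higher in TET_KO ESC by a doubling or more and 353 (2.25%) lower. In EpiLC 565 (3.6%) were higher and 398 (2.54%) lower, and in DNMT_KO against DNMT_WT ESC 328 (2.09%) and 335 (2.14%). The split between higher and lower depended on scaling: 60.0% of the promoters past a doubling were higher after quantile normalisation, 67.1% (638 and 313) with columns divided by their mean, and 77.1% (796 and 237) with scores as deposited, where the median of all promoters was 0.07. The members just inside the threshold had 0.6933 and -0.6932, those just outside 0.6929 and -0.6930.

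Of the 529 promoters higher in ESC, 419 (79.2%) were above 0 in EpiLC, where 51.4% of all promoters were. In EpiLC 141 of them (26.7%) were also higher by a doubling and 15 lower by a doubling. Of the 353 lower promoters, 250 (70.8%) were below 0 in EpiLC, 61 (17.3%) by a doubling, and 14 were higher by a doubling. Those 141 and 61 promoters made up 24.96% and 15.3% of the promoters past a doubling in EpiLC. Across all promoters the ESC and EpiLC differences had Pearson's r of 0.39 and Spearman's correlation of 0.39. With the difference between DNMT_KO and DNMT_WT in ESC, which shares no column, r was 0.0032 and Spearman's correlation 0.00075. Promoters are not independent replicates, and these correlations describe columns only, with the same lines used at both stages.

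The promoters past a doubling had few contacts. Their median number of scored contacts was 6 for higher and 5 for lower promoters, against 11 for all, and 240 and 203 of them had only 3 to 5. Among the 8537 promoters with at least 10 contacts, 153 (1.79%) were higher and 68 (0.797%) lower. TET_KO was above all 3 other ESC columns at 484 of the 529 higher promoters (91.5%), against 26.8% of all promoters, and below all 3 at 255 of the 353 lower ones (72.2%), against 27.9%. TET_WT was above both DNMT columns at 294 (83.3%) of the lower promoters and below both at 355 (67.1%) of the higher ones. At many of these promoters the wild-type column thus also stood apart from the DNMT lines, in the opposite direction. The matching share over all promoters was not computed for TET_WT, so its counts have no background beside them. These comparisons with other ESC columns follow in part from how the promoters were chosen.

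**Figure D2:**
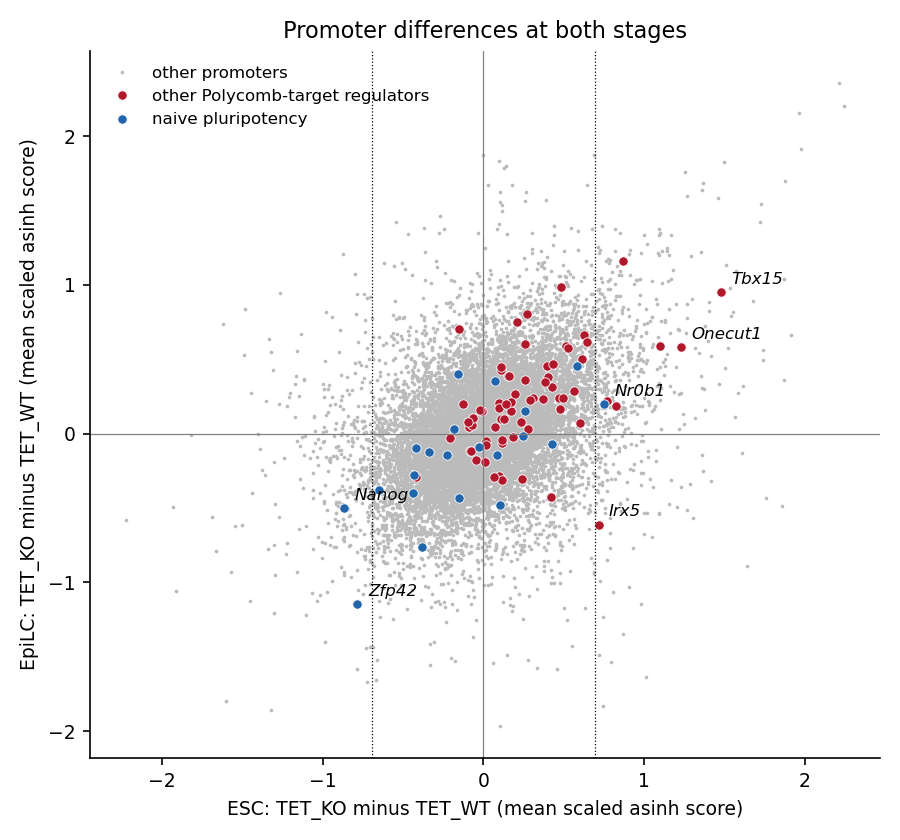
Each point is 1 of 15677 promoters, placed by the difference TET_KO minus TET_WT of its mean scaled asinh score in ESC (x axis) and in EpiLC (y axis); dotted lines mark a doubling in ESC. Polycomb-target regulators (red; Tbx3, which is also on the naive list, is drawn here) lie mostly to the right of 0, Nanog and Zfp42 among the naive genes (blue) lie lower left, and over all promoters r was 0.39.

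The largest higher promoter was Gm15552, a predicted gene on chr5:24867714-24874147. Its values in ESC were 0.32 in TET_WT and 2.57 in TET_KO, beside 0.40 and 0.33 in DNMT_WT and DNMT_KO. In EpiLC they were 0.21 and 2.41, beside 0.24 and 0.27. TET_KO was high at both stages and the other 6 columns lay between 0.21 and 0.40, a difference of 2.24 in ESC and 2.20 in EpiLC. Called contacts numbered 0 in TET_WT ESC and 21 in TET_KO ESC. Rheb, a small GTPase that activates mTOR signalling, lies beside it at chr5:24839664-24843098 and showed the same pattern, although it was named after its values were seen because the rule takes 1 promoter per 500 kb. Its ESC values were 0.28 in TET_WT and 2.24 in TET_KO, beside 0.39 and 0.25 in DNMT_WT and DNMT_KO. Rheb had 0 called contacts in TET_WT and 12 in TET_KO. Of its 23 listed contacts 14 scored exactly 0 in TET_WT and 0 did so in TET_KO, with medians of 0 and 5.08. One of them, with chr5:24242642-24244608 at -598 kb from the promoter on the chromosome's coordinates, scored 0 in DNMT_WT, DNMT_KO and TET_WT ESC and 8.32 in TET_KO ESC, and 0 and 3.80 in TET_WT and TET_KO EpiLC.

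The promoters of this stretch of chromosome 5 moved together. The 1 Mb windows named here and below were taken from those with the largest excess of higher or lower contacts in ESC. Their counts of higher and lower contacts are therefore no separate support. In the window from 24 to 25 Mb, 126 of 399 contacts were higher in TET_KO ESC and 6 lower, against 7.09% and 5.22% of all contacts. Calls numbered 41 in TET_WT and 202 in TET_KO ESC, against 38 in DNMT_WT and 29 in DNMT_KO, and 65 and 303 in TET_WT and TET_KO EpiLC. Among contacts within 1 Mb of promoters with a symbol, the one with the largest higher asinh difference also lay here. It joined the promoter of 4933426D04Rik (chr5:24900390-24903494) with chr5:24213909-24214882, 688 kb away, and scored 0 in TET_WT and 34.1 in TET_KO ESC, and 0 and 28.4 in EpiLC. In DNMT_WT it scored 0.53, and DNMT_KO ESC had no score. Copy number and chromosome structure of the lines were not measured, and scores alone cannot tell a difference in either from one in contacts, so what the values of Gm15552, Rheb and 4933426D04Rik stand for is uncertain in this respect.

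Emx2os, the antisense transcript beside the forebrain and urogenital regulator Emx2, had the largest difference among the other promoters named by the rule whose scored contacts all lay within 1 Mb (chr19:59449855-59461532). Its ESC values were 0.82 in TET_WT and 2.69 in TET_KO, beside 2.23 and 1.12 in DNMT_WT and DNMT_KO, and 0.88 and 2.58 in TET_WT and TET_KO EpiLC. TET_KO was high and TET_WT low, but DNMT_WT was also high, so the difference was not peculiar to TET_KO among the ESC columns. The deposited scores called 3 contacts in TET_WT and 21 in TET_KO. Its contact with a fragment in E330013P04Rik, 699 kb away, scored 0 in TET_WT and 17.3 in TET_KO, beside 5.53 and 0 in DNMT_WT and DNMT_KO.

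Gnai2, an inhibitory G protein alpha subunit, behaved alike (chr9:107629999-107645742). Its ESC values were 1.11 in TET_WT and 2.57 in TET_KO, beside 2.63 and 1.06 in DNMT_WT and DNMT_KO, so TET_KO matched DNMT_WT, and TET_WT matched DNMT_KO. The difference of 1.46 between TET_KO and TET_WT stood beside one of -1.58 between DNMT_KO and DNMT_WT. A contact 101 kb away scored 2.66 in TET_WT and 12.8 in TET_KO ESC, beside 13.8 and 1.78 in DNMT_WT and DNMT_KO. In EpiLC only TET_KO kept the high level, with 12.5 against 2.11 in TET_WT, 3.38 in DNMT_WT and 2.57 in DNMT_KO.

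The remaining higher promoters named by size were 1810030J14Rik (2.21), Cntnap5c (1.72), 1700001L19Rik (1.53), Mut (1.38), U6.362 (1.34), Mir146 (1.27) and Gtpbp10 (1.27). Cntnap5c belongs to a family of neuronal adhesion proteins, Mut is methylmalonyl-CoA mutase of the mitochondria, and U6.362 is a copy of a spliceosomal small nuclear RNA. 1700001L19Rik had values of 0.88 in TET_WT and 2.42 in TET_KO, and 0 against 16 called contacts, all within 1 Mb. 1810030J14Rik had no contact within 1 Mb. Its ESC values were 0.97 in TET_WT and 3.18 in TET_KO, beside 0.85 and 2.14 in DNMT_WT and DNMT_KO. In EpiLC they were 0.48 and 2.84 in the TET lines, beside 2.13 and 1.71 in DNMT_WT and DNMT_KO, so high values were not particular to TET_KO. Cntnap5c had 1 of its 12 contacts within 1 Mb. For Mut and Mir146 the direction rested on distant contacts: with contacts within 1 Mb alone the differences were -0.83 from 1 contact and -0.40 from 3. Gtpbp10 was at 0.12 with its 4 contacts within 1 Mb.

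**Figure D3:**
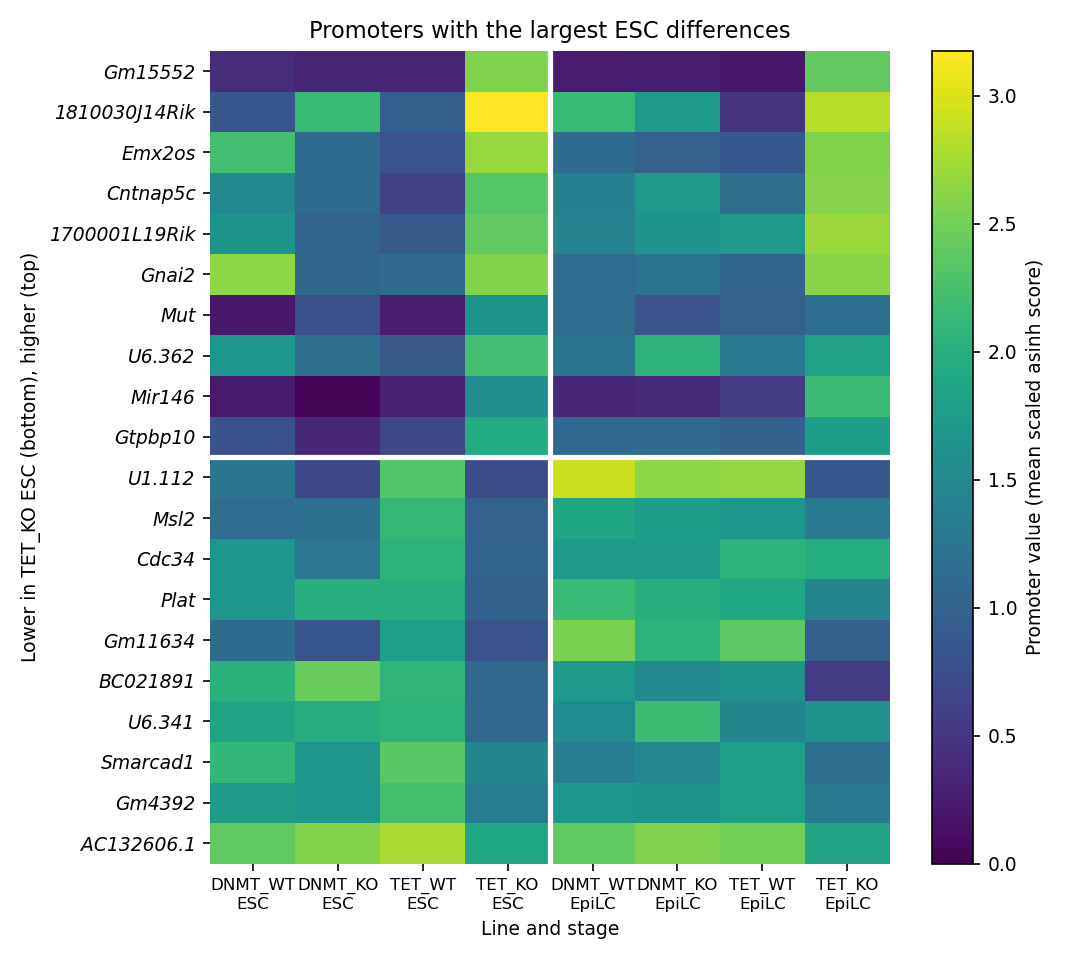
Promoter value (mean scaled asinh score, colour) in the 8 columns of line and stage for the 10 promoters with the largest higher (top) and lower (bottom) differences in TET_KO ESC, among promoters with at least 10 contacts. Gm15552 stands at 2.57 and 2.41 in the TET_KO columns and at most 0.40 in the others, while Gnai2 and Emx2os are also high in DNMT_WT ESC.

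Lower promoters had smaller differences. U1.112, a small nuclear RNA copy on chr11, had values of 2.32 in TET_WT and 0.72 in TET_KO ESC, beside 1.24 and 0.69 in DNMT_WT and DNMT_KO, and 2.66 and 0.87 in TET_WT and TET_KO EpiLC. Its difference of -1.60 came from far contacts and was 0.04 with its 3 contacts within 1 Mb. Copies of this RNA are nearly identical in sequence, so reads may be shared between them. Msl2, a ubiquitin ligase of the MSL chromatin complex (chr9:101073308-101076977), had 2.11 in TET_WT and 0.99 in TET_KO, beside 1.15 and 1.18 in DNMT_WT and DNMT_KO, and 6 and 0 called contacts. At Msl2 the TET_WT column was the one that stood apart, and in EpiLC the difference was -0.37.

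Plat, the tissue plasminogen activator, had 1.98 in TET_WT and 0.99 in TET_KO, beside 1.68 and 2.01 in DNMT_WT and DNMT_KO, with TET_KO below the other 3. BC021891 on chr8 had 2.08 in TET_WT and 1.10 in TET_KO, beside 2.04 and 2.44 in the DNMT lines, and in EpiLC 1.62 in TET_WT and 0.56 in TET_KO, so TET_KO was lowest at both stages. Smarcad1, a chromatin remodeller, went from 15 called contacts in TET_WT to 2 in TET_KO, with a difference of -0.91 in ESC and -0.62 in EpiLC. The other lower promoters named by size were Cdc34 (-1.02), a ubiquitin-conjugating enzyme, Gm11634 (-0.99), U6.341 (-0.95), Gm4392 (-0.90) and AC132606.1 (-0.88, 30 and 12 calls). Within 1 Mb alone Cdc34 was at -0.37, Gm11634 at -0.23 and AC132606.1 at -0.65, no longer past a doubling.

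Some promoters had no call left in TET_KO, among them Msl2, Plat, Cdc34 and Gm11634 of those named by size. Another was Gm15492 (chr6:113326536-113330101), named after its values were seen. Gm15492 had 49 listed contacts, of which 39 were called in TET_WT and 0 in TET_KO. The median score of its contacts was 6.07 in TET_WT and 2.62 in TET_KO ESC, beside 3.41 and 2.88 in DNMT_WT and DNMT_KO, and 5.32 and 3.13 in TET_WT and TET_KO EpiLC. TET_KO lay near the DNMT lines and TET_WT above them. The window around it, chromosome 6 from 113 to 114 Mb, had 201 calls in TET_WT and 50 in TET_KO ESC, 109 in DNMT_WT and 84 in DNMT_KO, and 216 and 35 in EpiLC. Here TET_KO was the lowest column and TET_WT the highest in ESC.

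Among the lists with over 2 measured promoters, the highest median was that of Polycomb-target regulators outside the Hox clusters, which are transcription factors and signals of development. Of 96 symbols on the list, 69 promoters could be measured; 7 (10.1%) were higher by a doubling, against 3.37% of all promoters, and 0 lower, against 2.25%. The median difference was 0.20, against -0.0041 over all promoters, and 56 of the 69 (81.2%) were above 0, against 49.5% of all. In EpiLC the median was 0.20, and for DNMT_KO against DNMT_WT in ESC -0.08. The median level was 1.73 in TET_WT, 2.05 in TET_KO, 1.88 in DNMT_WT and 1.80 in DNMT_KO, so TET_WT was the lowest and TET_KO the highest of the 4. The list was chosen with earlier results of these data known, and neighbouring members share contacts.

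Onecut1, a homeodomain factor of liver and neural development, had the second largest difference of the list, 1.23 (chr9:74859298-74867913). Its values were 1.27 in TET_WT and 2.5 in TET_KO ESC, beside 1.23 and 1.31 in DNMT_WT and DNMT_KO, and 1.54 and 2.12 in TET_WT and TET_KO EpiLC. TET_KO stood alone in ESC, and 2 of its 24 contacts were called in TET_WT and 18 in TET_KO. The contacts lay upstream around Wdr72: a fragment at -722 kb scored 1.70 in TET_WT and 17.0 in TET_KO, beside 5.76 and 4.29 in DNMT_WT and DNMT_KO. The fragment next to it scored 7.21 and 14.8, beside 1.03 and 0.56 in the DNMT lines. Over the window from 74 to 75 Mb, calls numbered 12 in TET_WT, 84 in TET_KO, 24 in DNMT_WT and 21 in DNMT_KO ESC. In EpiLC they numbered 28 in TET_WT and 65 in TET_KO. Of 107 contacts in the window, 52 were higher in TET_KO ESC and 0 lower, against 7.09% and 5.22% of all contacts.

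Tbx15, a T-box factor of limb and skin development, had 0.66 in TET_WT and 2.14 in TET_KO, beside 1.32 and 1.14 in DNMT_WT and DNMT_KO, a difference of 1.48 over 8 contacts. Irx1, an Iroquois homeobox gene, had 0.72 in TET_WT and 1.81 in TET_KO, beside 0.76 and 0.46 in the DNMT lines, over 5 contacts. Its contact with a fragment at Irx2, 668 kb away, scored 0.56 in TET_WT and 8.20 in TET_KO ESC and 3.55 and 8.48 in EpiLC. At both genes TET_KO was above the other ESC columns and the EpiLC difference had the same sign.

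Other members past a doubling were Alx4 of the limb and skull (0.82), Sim1 of the hypothalamus (0.77) and Irx5 (0.72). Irx5 was at -0.61 in EpiLC. Shh, the hedgehog ligand, had 74 contacts and a difference of 0.50, with 19 calls in TET_WT and 44 in TET_KO.

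Contact by contact, the Polycomb-target and Hox promoters together had 818 calls in TET_WT and 1182 in TET_KO ESC, 1026 in DNMT_WT and 956 in DNMT_KO, and 1040 and 1316 in TET_WT and TET_KO EpiLC. Of their 2662 scored contacts 240 (9.02%) were higher and 70 (2.63%) lower, where all contacts gave 7.09% and 5.22%. The share of higher contacts was near that of all contacts, and the share of lower contacts was below it. From 500 kb to 1 Mb 13.8% were higher and 3.69% lower, against 12.5% and 7.45% of all contacts at that distance. The Hox clusters themselves, which pattern the body axis, had a median of 0.04 over 31 promoters and none past a doubling; Hoxd8 was at 0.41 and Hoxa2 at -0.38.

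The naive pluripotency list went the other way, with a median of -0.15 over 22 promoters and 8 (36.4%) above 0, against 49.5% of all. By a doubling, 1 was higher (4.55%, against 3.37% of all promoters) and 2 lower (9.09%, against 2.25%). The medians were -0.11 in EpiLC and -0.16 for DNMT_KO against DNMT_WT, so a lower median was not peculiar to TET_KO. Nanog, a homeodomain factor of the naive network, had 2.61 in TET_WT and 1.74 in TET_KO ESC, beside 2.01 and 1.74 in DNMT_WT and DNMT_KO, and 2.40 and 1.90 in TET_WT and TET_KO EpiLC. TET_WT was the highest of the ESC columns and TET_KO was level with DNMT_KO. Called contacts numbered 28 in TET_WT and 8 in TET_KO.

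The lower scores of Nanog were spread over its neighbourhood. The contact with the promoter fragment of Phc1, a Polycomb gene at -369 kb, scored 13.1 in TET_WT and 4.79 in TET_KO, beside 6.21 and 5.15 in DNMT_WT and DNMT_KO. A fragment at -54 kb scored 12.1 and 5.26 in the TET lines, beside 7.34 and 5.32. A fragment in Slc2a3, a glucose transporter gene 68 kb downstream, scored 11.6 and 5.88, beside 8.60 and 1.67. At all 3, TET_WT had the highest score in ESC. A similar pattern was seen in the window from 124 to 125 Mb of chromosome 6, which does not hold Nanog. Calls there numbered 357 in TET_WT and 204 in TET_KO ESC, beside 200 and 146 in DNMT_WT and DNMT_KO, and 457 and 257 in TET_WT and TET_KO EpiLC. The pattern was thus not particular to Nanog.

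Zfp42 (also called Rex1), a marker of naive cells, had 1.71 in TET_WT and 0.93 in TET_KO ESC, beside 1.06 and 0.92 in DNMT_WT and DNMT_KO, and 1.57 and 0.42 in TET_WT and TET_KO EpiLC. Its difference of -0.78 was -0.69 with scores as deposited and -0.57 with its 2 contacts within 1 Mb, both short of a doubling. Nr0b1 (Dax1), a nuclear receptor, was the higher member at 0.75, with 1.5 in TET_WT and 2.25 in TET_KO over 6 contacts. Klf4, a zinc-finger factor of the naive state, was at 0.58, Utf1 at -0.65, Esrrb at -0.34, Sox2 at 0.25 and Pou5f1 at -0.03. The list thus held members in both directions. In all, its promoters had 129 calls in TET_WT and 94 in TET_KO ESC, 96 in DNMT_WT and 40 in DNMT_KO, with 16 contacts (4.79%) higher, against 7.09% of all contacts, and 39 (11.7%) lower, against 5.22%.

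**Figure D4:**
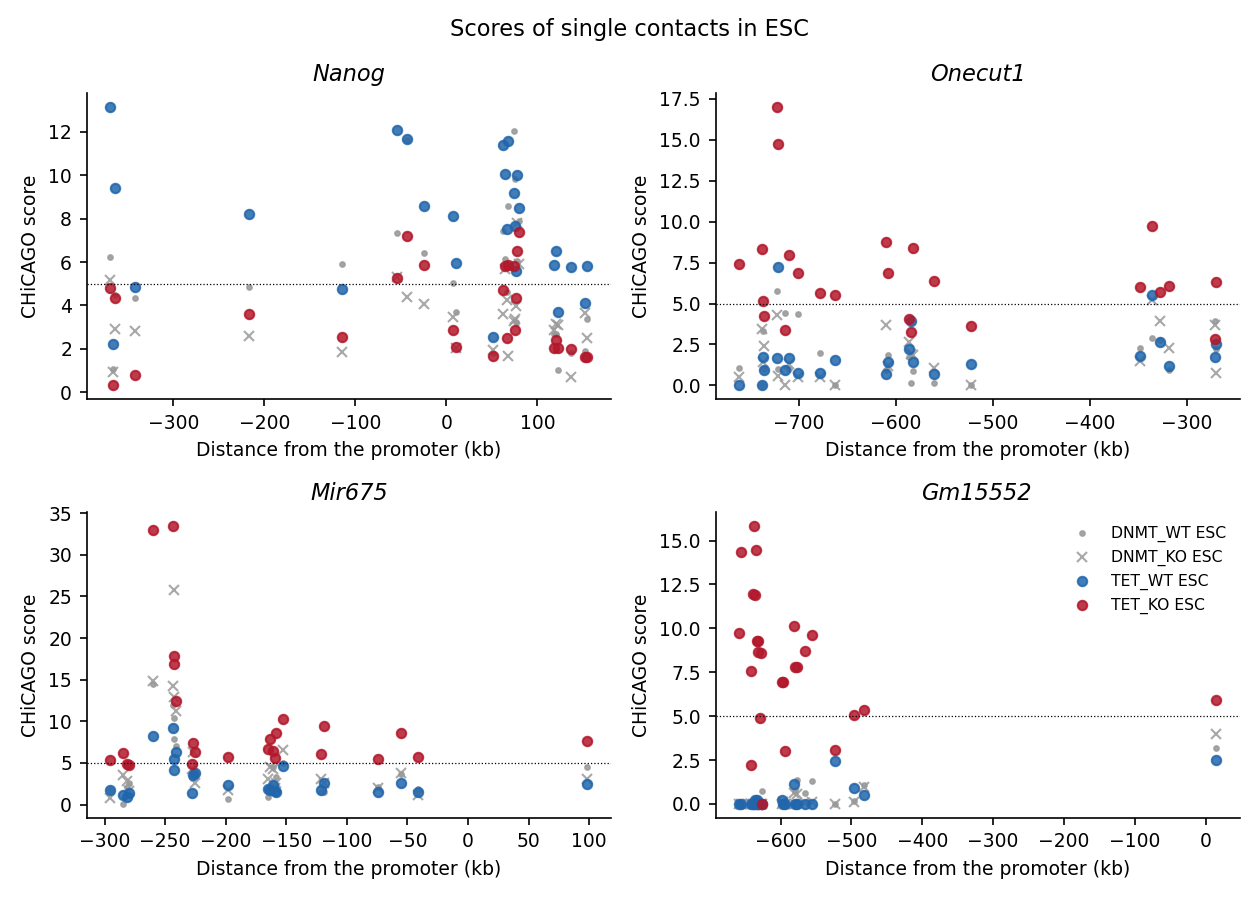
CHiCAGO scores of single contacts (y axis) by distance from the promoter in kb (x axis) in the 4 ESC columns at Nanog, Onecut1, Mir675 and Gm15552; the dotted line marks the score of 5. TET_WT (blue) is highest at most Nanog contacts, and TET_KO (red) is highest at most contacts of the other 3 promoters.

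Imprinted genes, expressed from the copy of one parent, had a median of 0.02 over 42 promoters. Past a doubling, 3 were higher (7.14%, against 3.37% of all promoters) and 1 lower (2.38%, against 2.25%). Igf2, the paternally expressed growth factor, had 1.77 in TET_WT and 2.66 in TET_KO ESC, beside 2.27 and 2.13 in DNMT_WT and DNMT_KO, with 2 and 16 calls. TET_WT was the lowest and TET_KO the highest, while in EpiLC the difference was 0.17. The neighbouring Mir675 promoter at H19 (chr7:142576177-142580248), named after its values were seen, had 1.72 in TET_WT and 2.78 in TET_KO, beside 1.87 and 2.18 in DNMT_WT and DNMT_KO, with 4 and 22 of 25 contacts called. Both promoters shared a far fragment, chr7:142317433-142319430. With Mir675 it scored 8.28 in TET_WT and 33.0 in TET_KO, beside 14.5 and 14.8 in DNMT_WT and DNMT_KO. With Igf2 it scored 5.14 and 23.3, beside 13.7 and 8.95. For Mir675 a fragment in Ifitm10, at -244 kb, scored 9.25 in TET_WT and 33.5 in TET_KO.

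The difference around H19 and Igf2 was wider than these promoters. The window from 142 to 143 Mb on chromosome 7 had 16 calls in TET_WT, 110 in TET_KO, 63 in DNMT_WT and 42 in DNMT_KO ESC. Of its 160 contacts, 54 were higher and 0 lower, against 7.09% and 5.22% of all contacts. In EpiLC TET_WT had 44 and TET_KO 82. TET_WT was the lowest of the 4 ESC columns there. Ddc, which lies beside the imprinted Grb10, was the lower member, with 2.36 in TET_WT, 1.66 in TET_KO and 17 and 2 calls; its difference of -0.70 was -0.64 with scores as deposited, short of a doubling. Igf2r (0.81 over 4 contacts) and Calcr (0.90 over 3 contacts, and 0.42 over 2 within 1 Mb) were higher.

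Genes of Nodal, Wnt and Bmp signalling had a median of 0.03 over 39 promoters. Past a doubling, 2 were higher (5.13%, against 3.37% of all promoters) and 2 lower (5.13%, against 2.25%). Id2, an inhibitor of bHLH factors and target of Bmp signals, had 1.10 in TET_WT and 2.12 in TET_KO ESC, beside 1.40 and 1.42 in DNMT_WT and DNMT_KO. In EpiLC all 4 columns were between 2.10 and 2.49, so its TET_KO value in ESC was near the EpiLC level. A fragment 979 kb away scored 5.46 in TET_WT and 12.02 in TET_KO ESC, beside 2.81 and 2.25 in DNMT_WT and DNMT_KO, and in EpiLC 13.9 and 15.7, beside 9.86 and 8.68. Fzd8, a Wnt receptor, was higher at 0.92 with 1 and 14 calls. Smad7, an inhibitor of Nodal and Bmp signals, was lower at -0.76 with 11 and 1 calls, and Sfrp2, a secreted Wnt antagonist, at -0.99 over 3 contacts.

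Germ layer lists differed in sign. Neuroectoderm genes had a median of 0.11 over 20 promoters with none past a doubling; Nkx6-1 was at 0.62, En1 at 0.56 and Pax6 at 0.48. Mesoderm and primitive streak genes had 0.01 over 23, and 1 was past a doubling (4.35%, against 3.37% of all promoters). It was Isl1, a factor of heart and motor neurons, at 0.84. Foxc1 was at 0.66 with 12 and 34 calls. Endoderm genes had -0.14 over 11 with none past a doubling. Trophoblast genes had 0.06 over 16 with Id2 past it (6.25%, against 3.37% of all promoters).

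Hematopoietic genes, named in the title of the series, had a median of 0.07 over 32 promoters, and -0.01 with contacts within 1 Mb. Past a doubling, 1 was higher and 1 lower (3.1% each, against 3.37% and 2.25% of all promoters). Tek, an endothelial receptor, was at 0.71 over 3 contacts, and at -0.36 with the 1 contact within 1 Mb. Lmo2, a bridging protein of blood progenitors, was at -0.81 over 3 contacts. Cebpb, a myeloid factor, was at 0.64 with 1 and 6 calls, and Meis1, a homeodomain factor of blood stem cells, at 0.50 with 0 and 4 calls. Of the 32 promoters 18 (56.2%) were above 0, against 49.5% of all. Next below Lmo2 in size on the lower side were Klf1 at -0.45 and Gata1 at -0.43, erythroid factors named after their values were seen, and Gata1 had 4 calls in TET_WT and 0 in TET_KO.

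Among lists tied to DNA methylation, the writers, erasers and partners had a median of -0.06 over 17 promoters with none past a doubling; Dnmt3l was at 0.44 and Smug1 at -0.45. Germline genes silenced by DNA methylation had -0.11 over 25, with 7 (28%) above 0, against 49.5% of all promoters. Tex15, of meiotic recombination and transposon silencing, was the only one past a doubling, at -0.99 over 4 contacts that were called in neither line. It made up 4% of the measured germline promoters, where 2.25% of all promoters were lower. Formative and primed epiblast genes had -0.12 over 15 with none past a doubling; Zic5 was at -0.63. The 2 measured two-cell-like genes, Pramel7 and Zfp809, were at 0.12 and 0.40.

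Clustered gene families lay on both sides of 0. Protocadherins had a median of 0.14 over 22 promoters, with 18 (81.8%) above 0, against 49.5% of all promoters. Pcdhb5 was past a doubling at 1.08 (4.55% of the list, against 3.37% of all promoters). The protocadherin median was 0.20 in EpiLC and -0.10 for DNMT_KO against DNMT_WT in ESC, near the values of the Polycomb-target list. Histone clusters had -0.03 over 33 in ESC and -0.24 in EpiLC, and DNMT_KO against DNMT_WT in ESC had -0.47. Olfactory receptors had 0.01 over 622, with 27 higher (4.34%, against 3.37% of all promoters) and 32 lower (5.14%, against 2.25%). Olfr631 was at 1.87 over 8 contacts, and at 0.90 over the 2 within 1 Mb. Olfr290 was at -1.62 over 3 contacts, but at 0.74 in EpiLC. Zinc-finger genes had -0.03 over 203, with 8 higher (3.94%) and 7 lower (3.45%). Vomeronasal receptors had -0.08 over 58, with 3 higher (5.17%) and 6 lower (10.3%). Ribosomal proteins had -0.05 over 48, with 1 lower (2.08%, against 2.25% of all promoters). It was Rps24, at -1.45 over 4 contacts, and at -0.79 with the 1 contact within 1 Mb.

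**Figure D5:**
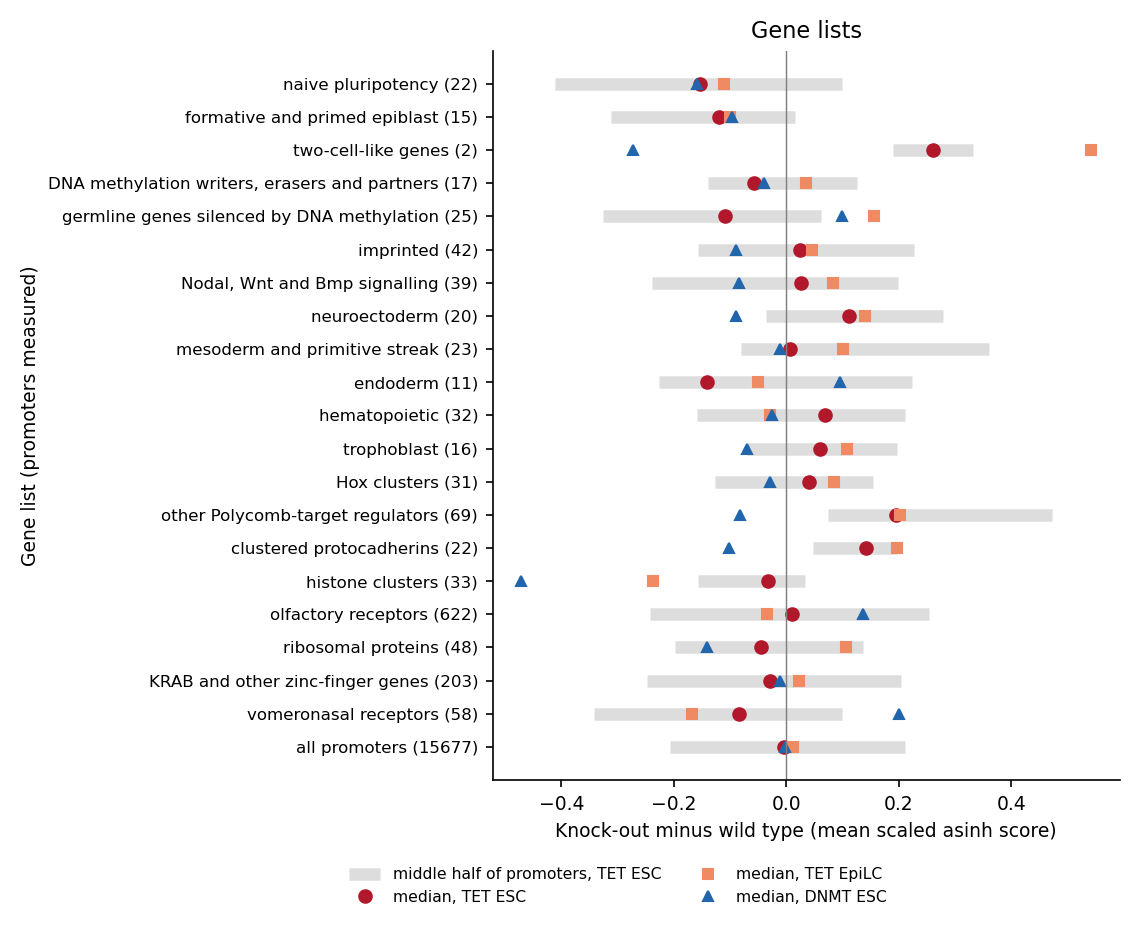
Median difference of knock-out minus wild type (mean scaled asinh score, x axis) for 20 gene lists and all promoters, in TET ESC (circles), TET EpiLC (squares) and DNMT ESC (triangles); grey bars span the middle of the promoters in TET ESC, between the 25th and 75th percentiles. The Polycomb-target regulators stand at 0.20 in both TET comparisons and at -0.08 in the DNMT comparison, and the histone clusters at -0.03 in TET ESC, -0.24 in TET EpiLC and -0.47 in the DNMT comparison.

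The single contacts with the largest differences clustered at a few places. The promoters of Mir1896 and Zfp187, neighbours on chromosome 13, both met the fragment chr13:21102404-21104745, 343 kb and 349 kb away. For Mir1896 the contact scored 0.21 in TET_WT and 26.9 in TET_KO ESC, beside 0 and 0.86 in DNMT_WT and DNMT_KO. For Zfp187 it scored 0.54 and 31.8, beside 0.22 and 0.81, and 0 and 31.5 in TET_WT and TET_KO EpiLC. TET_KO was the only high line at both stages. Whether the lines differ in copy number or structure at this stretch of chromosome 13 was not tested. The largest lower contact within 1 Mb joined Myo9b, an unconventional myosin, with chr8:71738949-71741287, and scored 18.4 in TET_WT and 0 in TET_KO ESC, beside 5.29 and 3.60 in DNMT_WT and DNMT_KO, and 9.24 and 0 in EpiLC. The third largest, of Gm4694 on chromosome 9, scored 13.4 in TET_WT and 0.35 in TET_KO, beside 12.8 and 10.2 in DNMT_WT and DNMT_KO. At both contacts the 2 TET_KO columns were the lowest of the 8.

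Beyond 1 Mb the largest differences ran in both directions between the same regions. The start of chromosome 1 and the region at 88 Mb gave the largest higher contacts, such as U6.629 with Heatr7b1 (0 in TET_WT, 26.7 in TET_KO), and also the largest lower one, of Ugt1a1 (25.6 and 0). In the window from 88 to 89 Mb, calls numbered 301 in TET_WT and 601 in TET_KO ESC, beside 297 and 325 in DNMT_WT and DNMT_KO. In EpiLC they numbered 389 in TET_WT and 444 in TET_KO. Of its 924 contacts, 325 were higher and 87 lower in TET_KO ESC. Contacts of all distances gave 7.09% higher and 5.22% lower, and those over 10 Mb gave 27.0% and 16.5%. On chromosome 11, U1.112 and chr11:101608697-101609961 scored 22.1 in TET_WT and 0 in TET_KO, and 21.7 and 0 in EpiLC. Small nuclear RNA genes belong to families with similar copies, and how uniquely reads map at these contacts was not tested.

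By chromosome, chromosome 8 stood lowest. Its 805 promoters had a median of -0.19 in ESC and -0.18 in EpiLC, and -0.12 in ESC with scores as deposited, against -0.0041 for all promoters (0.07 as deposited). The median level was 2.05 in TET_WT and 1.84 in TET_KO, beside 1.90 and 2.06 in DNMT_WT and DNMT_KO. Calls numbered 5648 in TET_WT and 4300 in TET_KO, and 4.21% of its contacts were higher and 7.73% lower. Chromosome 14 had -0.11 in ESC and -0.09 in EpiLC, and Zic5 and Rps24, described as lower, lie on it. The highest medians were 0.07 on chromosome 5 and 0.06 on chromosome 2. Plat, BC021891, AC132606.1, Myo9b, Tex15, Zfp42 and Klf1, described as lower, lie on chromosome 8, and Irx5, described as higher, lies there too. Whether the lines differ in copy number or structure of chromosome 8 was not tested.

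CpG content could be set against the difference for some promoters. A RefSeq promoter stretch could be matched to 8248 of 15677 promoters (52.6%), under the 80% needed, so this check is void: for the others no stretch of the same symbol lay in the captured fragment. The values are given as description only. In 5 classes of increasing CpG count the medians were 0.02, 0.02, -0.01, -0.04 and -0.02, and Spearman's correlation was -0.05 across promoters.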

How the data were processed

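Promoter-capture Hi-C was made from 2 labelled replicates of each of 8 groups, after HindIII digestion, per the labels' protocols. The submitters' processing notes name the genome build GRCm38 and, for trimming, cutadapt 2.3 and Trim Galore 0.6.5. The aligner, the version of CHiCAGO and the way replicates were combined were not given in the sources used here. CHiCAGO scores computed by the authors were deposited, 1 column per group, listed where at least 1 column reached 5. Such scores depend on depth and on the background model, so a deeper column can hold more calls. Distances were used as deposited.

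Here, contacts were counted at thresholds of 5 and 3 on the deposited scores. Promoter values are means of asinh(score) after quantile normalisation of the 8 columns, over contacts scored in all of them, for promoters with at least 3. Counts of calls cover all listed contacts of a promoter. The computation was tested on simulated data. Python 3.11.15, numpy 2.4.6, pandas 2.3.3, scipy 1.17.1 and matplotlib 3.10.9 were used. With 1 column per group no SD, test or p-value was possible.

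Named promoters are Tet1, Tet2 and Tet3, the 10 largest differences each way with at least 10 contacts and a symbol (1 per 500 kb), list members past a doubling or up to 4 largest, and examples from the 10 largest contacts each way within 1 Mb and 5 beyond. For the olfactory, vomeronasal and zinc-finger lists only counts and the largest members are given. Some list members are counted but not reported by name here. A few others are marked as named after their values were seen; Shh, Klf4, Esrrb, Sox2, Pou5f1, Klf1 and Gata1 were likewise named after that. The comparison and the gene lists were chosen with earlier results of these data known. Sequences are from RefSeq (GRCm38.p6).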

Additional observations from a re-analysis of the deposited data

Results flagged for a closer look

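Several differences between TET_KO and TET_WT ran in opposite directions in ESC and EpiLC; with 1 column per group these contrasts were not tested. U6.341 was at -0.95 in ESC and 0.19 in EpiLC. The germline gene Tex15 was at -0.99 and 0.25, and the median of the germline list at -0.11 and 0.16. Among imprinted genes Igf2r was at 0.81 in ESC and -0.20 in EpiLC, and Calcr at 0.90 and -1.03. Sfrp2, the secreted Wnt antagonist, was at -0.99 in ESC and 0.49 in EpiLC. The Iroquois gene Irx5 was at 0.72 and -0.61, and the protocadherin Pcdhb5 at 1.08 and -0.18. Of these promoters Calcr and Sfrp2 had 3 contacts, Tex15 and Igf2r 4, Irx5 7, Pcdhb5 8 and U6.341 14. Calls beyond 10 Mb on the same chromosome had a ratio of TET_KO over TET_WT of 1.18 in ESC and 0.710 in EpiLC.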

How the results depend on the processing

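No paired analysis was possible because each group has 1 column, and for the same reason no replicate could be left out. Counts moved with their thresholds by construction. Contacts higher in TET_KO numbered 3913 with the low score under 1, 3566 with calls at 7 or more and 686 at 10 or more; lower contacts numbered 2232, 1932 and 246. Higher promoters numbered 796 with no scaling, 1023 with no minimum of contacts, 153 with at least 10 and 236 on log2(score + 1) with a threshold of 1; lower promoters numbered 844, 68 and 144 under the last 3. The ratio of all calls was 1.05 at 3 or more, 1.14 at 7, 1.24 at 10 and 1 after both TET columns were normalised to each other, an alternative chosen after seeing the data. The ratio from 1 to 10 Mb was 1.44 at 3 or more, 1.72 at 7 and 1.82 at 10. With contacts within 1 Mb alone, 59 of 74 named promoters past a doubling kept their direction and stayed past it, 11 were no longer past it and 4 changed direction: Mut (-0.83), Mir146 (-0.40), U1.112 (0.041) and Tek (-0.36), where 1 to 3 contacts remained for each; the cause was not tested. With scores as deposited 71 of 75 stayed past a doubling, and 74 with columns divided by their mean. The histone median was -0.16 within 1 Mb. Depth is unknown, so it is not known how many differences near the threshold depth alone would give.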
